A study of Mus musculus with 6 samples.

Results

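The genes that place, copy and remove methyl groups on DNA were measured in naive CD4 T cells that lacked or carried the surface protein Ly-6C. The 7 genes described are Dnmt1 and Uhrf1, which maintain methylation, Dnmt3a and Dnmt3b, which set it de novo, and Tet1, Tet2 and Tet3, which begin its removal. They were chosen by function, as a list of symbols, from 19938 genes with a named probe set, and all 7 were measured. Where a gene had several probe sets with a single symbol, the one to report was selected on the highest mean over the 6 arrays, so those means are given as a description only. The difference between the groups was not part of that choice, but the list was drawn up with results of these arrays known.

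The Ly-6C- (Ly-6C-negative) and Ly-6C+ (Ly-6C-positive) cells were taken at 6 weeks of age from peripheral lymph nodes of the strain C57BL/6 Foxp3-GFP, whose green fluorescent protein marks cells with Foxp3, the factor of regulatory T cells. Both groups carry that reporter and share the rest of the sort, which kept CD4+ CD8- TCRβ+ cells with low CD44 and neither CD25 nor Foxp3. Each group has 3 Affymetrix arrays, called biological replicates in the labels without a statement of which mice gave which cells, so the spread between them may be partly technical. Expression is given as log2 values, on which a difference of 1 is a doubling, and a difference is always the Ly-6C-negative value minus the Ly-6C-positive one.

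DNA methylation in mammals sits mainly on cytosines that precede a guanine, called CpG sites. After replication, Uhrf1 binds the half-methylated site and brings in Dnmt1, which copies the mark to the new strand, while Dnmt3a and Dnmt3b methylate sites that carried no mark. Tet enzymes oxidise 5-methylcytosine with iron and 2-oxoglutarate, and the oxidised base is lost at replication or cut out by base excision repair. In T cells, Dnmt3a is known to help silence cytokine genes of other helper lineages, and Tet2 and Tet3 to keep the Foxp3 locus demethylated in regulatory T cells.

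Dnmt3a was the member that set the groups furthest apart, and its difference did not pass the threshold, a limma adjusted p of 0.05 over all genes. It measured 8.73, 8.65 and 8.70 on the 3 Ly-6C-negative arrays, against 8.34, 8.33 and 8.29 on the 3 Ly-6C-positive arrays. Every Ly-6C-negative array lay above every Ly-6C-positive array. The means were 8.69 ± 0.040 in Ly-6C-negative cells and 8.32 ± 0.026 in Ly-6C-positive cells (SD, n = 3 each). The difference was 0.38 with a standard error of 0.063, or 1.30-fold with a 95% confidence interval of 1.18 to 1.43 (limma adjusted p = 0.0808). This fit, used throughout unless stated, takes no account of replicate number. With replicate number as a block, the standard error of Dnmt3a was 0.072 and its limma adjusted p 0.128. By p in the fit without the block, Dnmt3a ranked 38 among 19938 genes. In either direction 132 genes, or 0.662%, had a difference at least as large.

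Of the 7 members, 0 passed the limma threshold, where 0.145% of all genes did and 0.1% did with higher expression in Ly-6C-negative cells. At an unadjusted limma p under 0.05, 3 members were reached, Dnmt3a, Tet1 and Tet3, all higher in Ly-6C-negative cells, beside 6.71% of all genes in either direction and 3.44% in that direction. For 2 members no array of one group reached into the range of the other. These were Dnmt3a and Tet3, both higher in the Ly-6C-negative group, as were 6.12% of all genes in that direction. The difference was above 0 for 6 of 7 members, with a median of 0.15, against 47.8% of all genes and a median of -0.0048. The members were not picked at random, so these shares are a description and not a test.

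**Figure D1:**
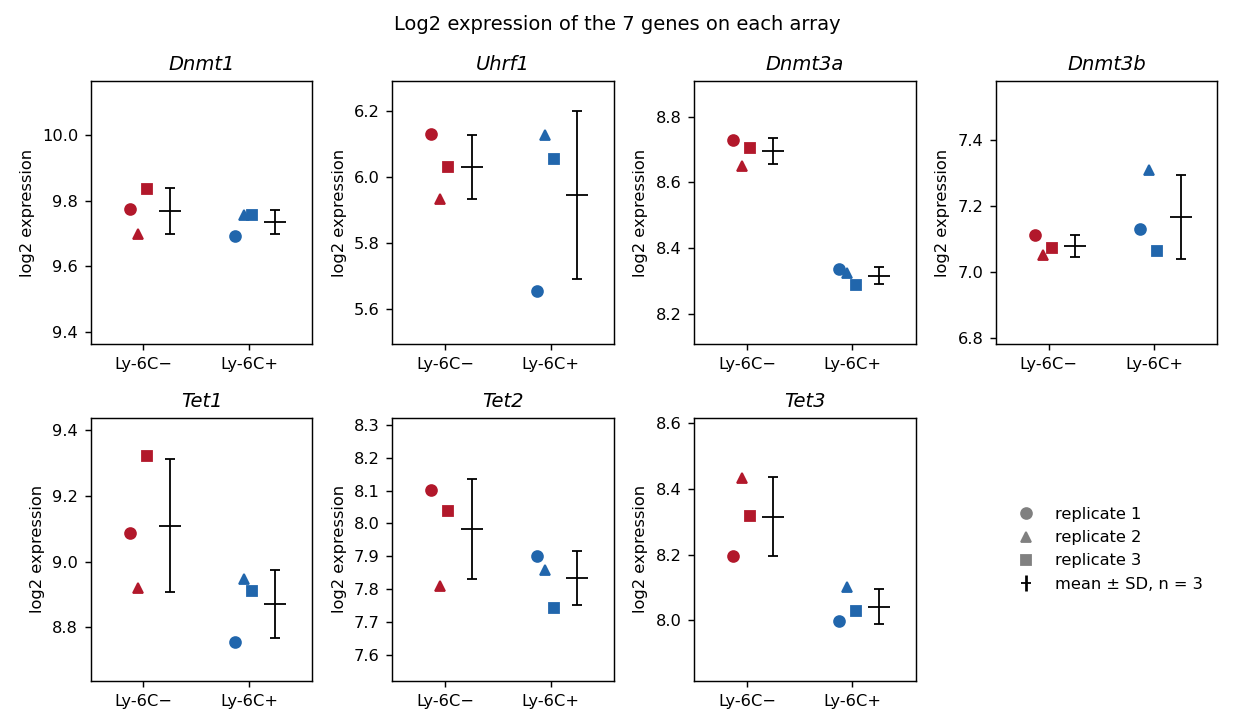
Log2 expression of each gene on each array, Ly-6C-negative left and Ly-6C-positive right, with one marker shape per replicate number and the mean ± SD (n = 3) beside the points; every panel spans the same log2 range, and levels of different genes are not comparable. Dnmt3a separates the groups with 8.65 to 8.73 against 8.29 to 8.34, and Tet3 separates them more narrowly.

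The promoters of both de novo enzymes and of Tet3 are shown because Dnmt3a and Tet3 were the members whose groups did not overlap, and Dnmt3b is the closest relative of Dnmt3a that did overlap. Each window, from RefSeq on GRCm38.p6, runs 5′ to 3′ from 250 bases before an annotated transcript start to 50 bases after it, and capitals mark CpG sites, the substrate of these enzymes. The arrays do not tell which annotated start these cells used.
Dnmt3a, chr12:3806730-3807029, plus strand: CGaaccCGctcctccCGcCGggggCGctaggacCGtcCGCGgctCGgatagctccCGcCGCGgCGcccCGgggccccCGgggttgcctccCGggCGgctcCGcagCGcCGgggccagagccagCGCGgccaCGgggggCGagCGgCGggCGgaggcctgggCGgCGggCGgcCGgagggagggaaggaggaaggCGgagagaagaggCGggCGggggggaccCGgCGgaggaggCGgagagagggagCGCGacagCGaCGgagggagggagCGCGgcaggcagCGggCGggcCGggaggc
Dnmt3b, chr2:153649199-153649498, plus strand: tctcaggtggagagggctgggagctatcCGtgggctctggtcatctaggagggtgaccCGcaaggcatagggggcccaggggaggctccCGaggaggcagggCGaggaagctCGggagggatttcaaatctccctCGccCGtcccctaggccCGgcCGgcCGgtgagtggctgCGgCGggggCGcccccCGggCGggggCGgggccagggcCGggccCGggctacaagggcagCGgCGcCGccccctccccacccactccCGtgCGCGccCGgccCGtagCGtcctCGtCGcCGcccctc
Tet3, chr6:83441629-83441928, minus strand: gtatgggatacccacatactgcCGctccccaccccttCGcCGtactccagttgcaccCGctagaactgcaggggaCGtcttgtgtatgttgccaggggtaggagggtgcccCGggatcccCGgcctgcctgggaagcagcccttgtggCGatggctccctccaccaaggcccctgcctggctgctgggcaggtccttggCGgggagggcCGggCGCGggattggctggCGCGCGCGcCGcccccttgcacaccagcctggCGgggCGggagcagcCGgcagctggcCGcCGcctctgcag

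The Dnmt3a window shown, at the outermost of its 3 annotated starts, held 46 CpG sites in 300 bases, and 1.65% of the 32851 promoter windows in the table held as many. The other Dnmt3a windows held 47 and 18, and 1.44% and 29.7% of all windows reached those counts. The Dnmt3b window held 30 and the Tet3 window 22, counts that 11.7% and 23.1% of all windows reached. The median window of the table held 7. All 7 members had at least 1 window, 12 in all, since Dnmt1 and Dnmt3a have 3 each and Uhrf1 has 2. The Tet1 window held 17 CpG sites and the Tet2 window 57, the most of the 12, which 0.15% of all windows reached. The GC box GGGCGG was found on either strand in 10 of the 12 windows and in 35.7% of all windows, which overlaps the CpG count because the motif contains one. Counts over the 12 windows are not counts of independent promoters, since 2 of the Dnmt3a windows share bases and some genes enter several times. The windows thus ranged between 2 CpG sites, at the outermost Dnmt1 start, and 57.

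For the maintenance pair no difference was detectable with this number of arrays. Dnmt1, the methyltransferase that follows the replication fork, measured 9.77, 9.70 and 9.83 on the Ly-6C-negative arrays, against 9.69, 9.75 and 9.76 on the Ly-6C-positive arrays. The groups overlapped, and their difference of 0.034 had a 95% confidence interval of -0.12 to 0.18 (limma adjusted p = 0.963). It was 0.00086 without Ly-6C-negative replicate 3, 0.069 without Ly-6C-negative replicate 2 and 0.013 without Ly-6C-positive replicate 1. Uhrf1, the reader of half-methylated sites, measured 6.13, 5.93 and 6.03 in Ly-6C-negative cells, against 5.65, 6.13 and 6.05 in Ly-6C-positive cells. A single low array, Ly-6C-positive replicate 1, set the sign of its difference, which was 0.086 with an interval of -0.18 to 0.35 (limma adjusted p = 0.942) and -0.06 without that array. Its mean lay below that of the median gene, 6.37, where background takes a larger part of the signal and differences are compressed. As folds, the intervals ran from 0.923 to 1.14 for Dnmt1 and from 0.883 to 1.28 for Uhrf1.

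A window of each of these 2 genes held a match to the binding motif of E2F factors, which drive genes of DNA replication. The letters searched on both strands were TTTGGCGC, TTTCCCGC, TTTCGCGC and TTTGCCGC, and the matches are in capitals in the RefSeq windows on GRCm38.p6.
Dnmt1, chr9:20952574-20952873, minus strand: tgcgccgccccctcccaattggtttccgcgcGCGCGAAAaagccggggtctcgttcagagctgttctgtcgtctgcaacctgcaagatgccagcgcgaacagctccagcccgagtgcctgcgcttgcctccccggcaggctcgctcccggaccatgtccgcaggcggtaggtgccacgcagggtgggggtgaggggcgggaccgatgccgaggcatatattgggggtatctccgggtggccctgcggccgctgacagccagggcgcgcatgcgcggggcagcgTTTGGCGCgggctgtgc
Uhrf1, chr17:56304063-56304362, plus strand: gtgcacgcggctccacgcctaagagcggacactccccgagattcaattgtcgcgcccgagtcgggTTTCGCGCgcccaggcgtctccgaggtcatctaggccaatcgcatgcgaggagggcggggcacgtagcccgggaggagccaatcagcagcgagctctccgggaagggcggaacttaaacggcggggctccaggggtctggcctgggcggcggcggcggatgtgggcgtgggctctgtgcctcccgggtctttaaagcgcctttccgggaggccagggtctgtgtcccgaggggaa
The Dnmt1 window held TTTGGCGC and, on the other strand, TTTCGCGC, and the Uhrf1 window held TTTCGCGC. These were 2 of the 12 member windows, and 2.26% of all windows held any of the 4 motifs. Each of the 4 motifs contains a CpG, so this share is not matched for CpG count. Both windows with a match held 33 CpG sites, a count that 8.56% of all windows reached, where the median window held 7. The other windows of Dnmt1 and Uhrf1 and those of the de novo and Tet genes held none of these letters, which says nothing of whether an E2F factor binds there. The CCAAT motif was in 5 of the 12 windows on either strand and in 37.4% of all windows.

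The other de novo enzyme had a lower mean in Ly-6C-negative cells, with overlapping groups. Dnmt3b, which acts mainly in the early embryo and at repeats, measured 7.11, 7.05 and 7.07 on the Ly-6C-negative arrays, against 7.13, 7.31 and 7.06 on the Ly-6C-positive arrays. The Ly-6C-negative values lay within or just under the Ly-6C-positive range, and the highest value belonged to Ly-6C-positive replicate 2. The difference was -0.090 (SE 0.078), with an interval of -0.26 to 0.08 (limma adjusted p = 0.902). It was -0.019 without Ly-6C-positive replicate 2 and -0.14 without Ly-6C-positive replicate 3. Whether the differences of Dnmt3a and Dnmt3b themselves differ was not tested.

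Each Tet gene had a higher mean in Ly-6C-negative cells, and none passed the limma threshold. Tet3 measured 8.195, 8.433 and 8.318 on the Ly-6C-negative arrays, against 7.998, 8.100 and 8.027 on the Ly-6C-positive arrays. The groups did not overlap, and the difference was 0.27 with a standard error of 0.078, or 1.21-fold with an interval of 1.07 to 1.36 (limma adjusted p = 0.473). Tet2, the Tet gene most often mutated in human blood cancers, measured 8.10, 7.81 and 8.04 in Ly-6C-negative cells, against 7.90, 7.86 and 7.74 in Ly-6C-positive cells. Ly-6C-negative replicate 2 fell inside the Ly-6C-positive range, and the difference was 0.15 (SE 0.089; limma adjusted p = 0.837).

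Tet1, the founding member of the family, measured 9.09, 8.92 and 9.32 on the Ly-6C-negative arrays, against 8.75, 8.95 and 8.91 on the Ly-6C-positive arrays. The groups overlapped through Ly-6C-negative replicate 2, while Ly-6C-negative replicate 3 lay above all other arrays. The difference was 0.24 (SE 0.10; limma adjusted p = 0.737), and it was 0.13 without Ly-6C-negative replicate 3.

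The 7 genes had 10 probe sets in all, because Tet1 had 3 and Tet3 had 2. The second Tet3 probe set, 10545682, measured 8.03, 8.14 and 8.36 in Ly-6C-negative cells, against 7.94, 7.83 and 7.99 in Ly-6C-positive cells. Its groups did not overlap either, and its difference of 0.26 was close to that of probe set 10545692, which is the one reported above. For Tet1, probe set 10369690 gave 8.41, 8.32 and 8.62 in Ly-6C-negative cells, against 8.14, 8.26 and 8.25 in Ly-6C-positive cells, a difference of 0.24 with no overlap. The third Tet1 probe set, 10369688, differed by 0.022, with values of 8.290, 8.005 and 8.357 in Ly-6C-negative cells, against 8.259, 8.332 and 7.993 in Ly-6C-positive cells. Its groups overlapped over most of their range. Adjusted over all 28853 probe sets, the limma adjusted p of the 5 Tet1 and Tet3 probe sets lay between 0.522 and 0.990. The parts of the transcripts that these probe sets cover were not analysed here.

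**Figure D2:**
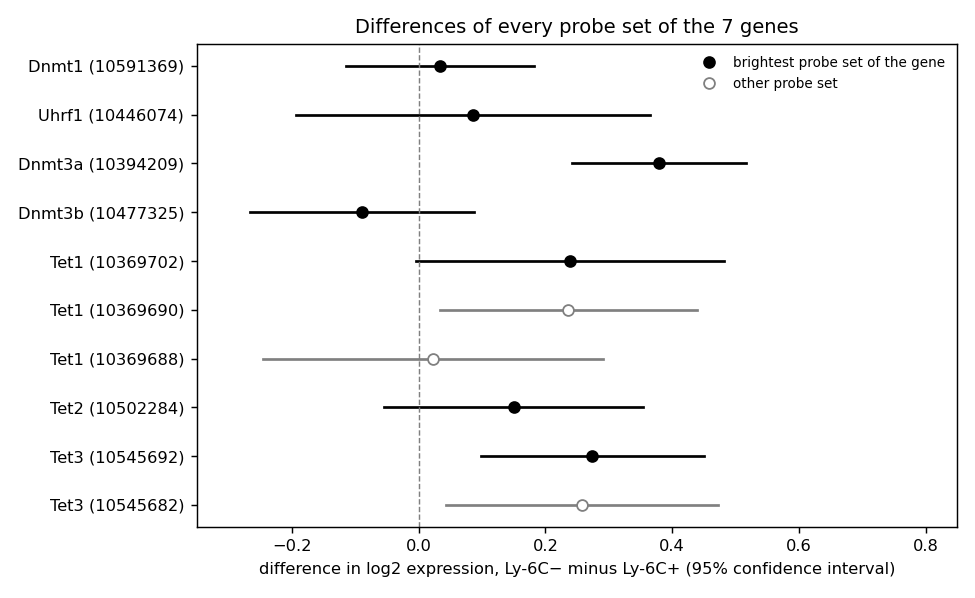
Difference in log2 expression, Ly-6C-negative minus Ly-6C-positive, for all 10 probe sets, with the limma 95% confidence interval from the fit over every probe set; filled points are the probe set reported for the gene and open points the others. The interval of Dnmt3a lies farthest from 0, both Tet3 probe sets lie at 0.26 to 0.27, and one Tet1 probe set lies near 0 while the others lie at 0.24.

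The members varied in different ways over the arrays. Among the 21 pairs of members, Pearson's r over the 6 arrays ran from -0.44 for Dnmt3a with Dnmt3b to 0.92 for Dnmt1 with Tet1, and 16 pairs lay above 0. These values are descriptions of 6 points that share the group difference, the array and its preparation. Dnmt3a and Tet3 had r = 0.82 over the 6 arrays, but -0.74 for their deviations from the group means, a value that rests on 3 arrays a group. Ly-6C-negative replicate 2 was the lowest array of its group for 6 members and the highest for Tet3. That array also received the lowest limma array weight, 0.456, where the other weights ran from 0.751 to 1.51. Without it the difference was 0.40 for Dnmt3a (limma adjusted p = 0.0653), 0.33 for Tet1, 0.24 for Tet2 and 0.21 for Tet3, and 0 members passed.

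Set out by replicate number, Dnmt3a was higher in the Ly-6C-negative array of each pair, by 0.39, 0.33 and 0.42. Tet3 was higher by 0.20, 0.33 and 0.29. For Dnmt3a and Tet3 these signs follow from the groups not overlapping, whichever arrays are matched, and add no further evidence. Tet1 was higher by 0.33 and 0.41 in replicates 1 and 3 and differed by -0.028 in replicate 2. In replicate 2, 5 of the 7 members lay lower in the Ly-6C-negative array, against 1 of 7 in each other replicate. Of all genes, 52.8%, 48.1% and 46.7% lay above 0 in replicates 1, 2 and 3.

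The members with the widest range over the 6 arrays were Tet1, at 0.57, and Uhrf1, at 0.48. The genes whose values followed Tet1 most closely were Noc4l at r = 0.994, Fzd10os at 0.993 and Cyth4 at 0.992, and 166 genes reached an r of 0.9 with it. For Uhrf1 they were Prss29 at r = 0.990, Greb1 at 0.987 and Nsun3 at 0.987, among 76 genes that reached 0.9. None of these 6 genes passed the limma threshold between the groups (adjusted p from 0.617 to 0.982). Over 6 arrays, an r this high also arises by chance among so many genes, and the number expected was not worked out. Fzd10os, Prss29 and Greb1 lay below the median gene, 6.37, on every array, and Greb1 ran only from 4.57 to 4.75.

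**Figure D3:**
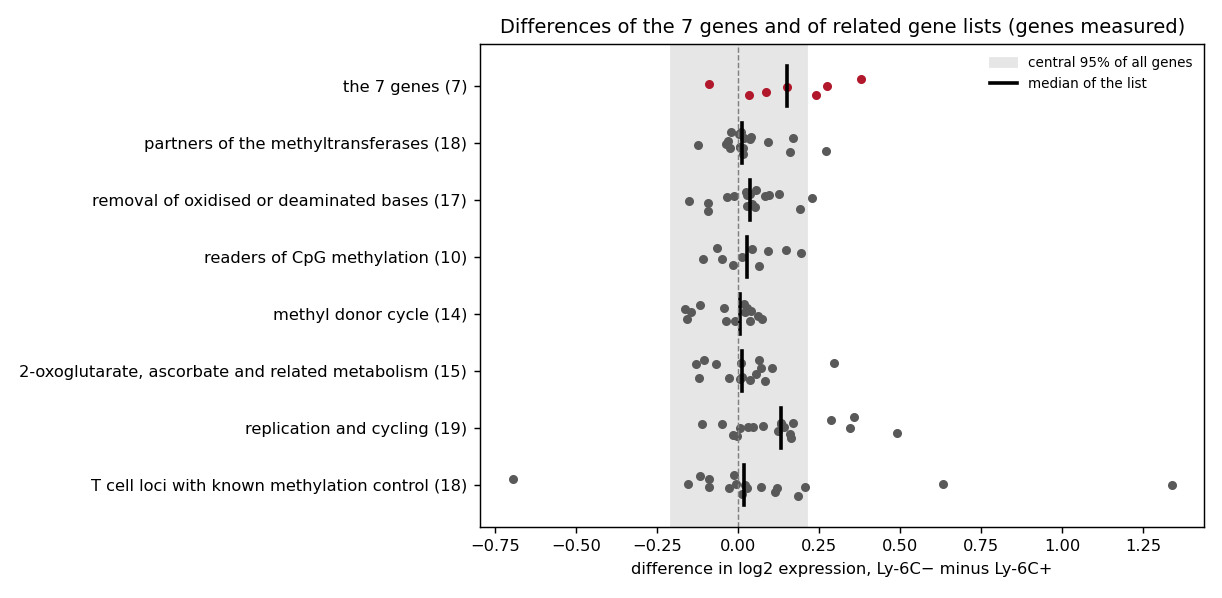
Difference in log2 expression, Ly-6C-negative minus Ly-6C-positive, of the 7 genes and of each related list, with the number of genes measured in brackets, one point per gene and a bar at the list's median; the shaded band holds the central 95% of all genes, from -0.21 to 0.21. The 7 genes have a median of 0.15 and the replication list 0.13, while the other lists have medians from 0.005 to 0.037.

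Related parts of the methylation machinery were examined next. Of the 74 measured genes in 5 lists of partners, base removal, readers, methyl donors and 2-oxoglutarate metabolism, 0 passed the limma threshold, against 0.145% of all genes. At an unadjusted limma p under 0.05, 4 were higher in the Ly-6C-negative group and 1 was lower, together 6.76%, beside 6.71% of all genes. Their median difference was 0.018.

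Among 18 partners of the methyltransferases, 13 lay above 0, with a median of 0.011. Ezh2, the enzyme of the repressive mark on histone H3 lysine 27, measured 9.84, 9.64 and 9.63 in Ly-6C-negative cells, against 9.48, 9.44 and 9.36 in Ly-6C-positive cells. Its groups did not overlap, with a difference of 0.27 (limma adjusted p = 0.487). The DNA ligase gene Lig1 differed by 0.17, Cdca7, whose product activates the remodeller Hells, by 0.16 and its relative Cdca7l by -0.12 (limma adjusted p from 0.718 to 0.857).

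Of 17 measured genes that remove oxidised or deaminated bases, 12 lay above 0, with a median of 0.037. Gadd45b, a stress-induced gene linked to demethylation, measured 7.83, 7.74 and 7.62 in Ly-6C-negative cells, against 7.41, 7.48 and 7.62 in Ly-6C-positive cells, and differed by 0.23 (limma adjusted p = 0.632). The glycosylase gene Neil1 differed by -0.15, the ligase gene Lig3 by 0.13 and Parp1, a sensor of strand breaks, by -0.093. Of 10 measured readers of CpG methylation, 6 lay above 0, with a median of 0.028. The methyl-CpG binding zinc finger genes Zbtb38 and Zbtb4 differed by 0.19 and -0.11, Kdm2b, which binds unmethylated CpG, by 0.15 and Mbd2, a methyl-CpG binder, by 0.092. The limma adjusted p of these readers lay between 0.770 and 0.862.

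For the cofactors, 7 of 14 measured genes of the methyl donor cycle lay above 0, with a median of 0.005. Shmt2, the mitochondrial enzyme that feeds one-carbon units from serine, differed by -0.16 with no overlap between the groups (limma adjusted p = 0.742). The amino acid transporter gene Slc7a5 differed by -0.16, and the genes of the methionine adenosyltransferase subunits Mat1a and Mat2b by -0.12 and 0.072. Of 15 measured genes around 2-oxoglutarate and ascorbate, 10 lay above 0, with a median of 0.012. Idh1, the cytosolic enzyme that makes 2-oxoglutarate from isocitrate, measured 7.04, 6.95 and 6.95 in Ly-6C-negative cells, against 6.64, 6.57 and 6.83 in Ly-6C-positive cells. Its groups did not overlap, with a difference of 0.30 (limma adjusted p = 0.458). The mitochondrial Idh2 and Idh3a differed by -0.12 and -0.11, and the fumarase gene Fh1 by 0.10.

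Replication genes were examined because Dnmt1 and Uhrf1 act at the replication fork. Of 19 measured, 0 passed the limma threshold and 5 were reached at an unadjusted limma p under 0.05, all higher in Ly-6C-negative cells, with 15 above 0 and a median of 0.13. Over all genes, 0.145% passed, and 3.44% were reached at the unadjusted limit with higher expression in Ly-6C-negative cells. Like the members, the replication list was drawn up with earlier results of these arrays known, so its count is no independent evidence. The mean level of the list lay between 7.17 and 7.20 on the Ly-6C-negative arrays and between 6.99 and 7.10 on the Ly-6C-positive arrays. Top2a, the topoisomerase gene of dividing cells, measured 7.70, 7.40 and 7.52 in Ly-6C-negative cells, against 7.04, 6.97 and 7.14 in Ly-6C-positive cells, a difference of 0.49 (limma adjusted p = 0.139). Mki67, Cdc6 and Stmn1 differed by 0.36, 0.35 and 0.29 (limma adjusted p from 0.458 to 0.523). The means of Mki67 and Cdc6 lay below that of the median gene, 6.37, in both groups. The 4 genes below 0 were Tk1 at -0.11, Cdk1 at -0.050, E2f1 at -0.017 and Mcm2 at -0.0026. The mean of the replication list was thus higher on every Ly-6C-negative array, as Dnmt3a was, while the groups overlapped for Dnmt1 and Uhrf1. The part of cycling cells in the difference of Dnmt3a was not tested. In bulk RNA, fewer cells with a transcript and less of it per cell cannot be told apart.

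Among 18 genes whose loci are known to be controlled by methylation in T cells, 2 passed the limma threshold, both higher in Ly-6C-negative cells, where 0.145% of all genes passed and 0.1% passed in that direction, and the median difference was 0.017. They were the inhibitory receptor gene Ctla4 at 1.34 (limma adjusted p = 0.0121) and Ikzf2, the gene of Helios, at 0.63 (limma adjusted p = 0.0263). The list was drawn up with these results known, so its count is no independent evidence. Prf1, the perforin gene, differed by -0.70 (limma adjusted p = 0.145, or 0.00848 in the fit blocked on replicate number). The count was 3 with array weights and 3 in the blocked fit, and with an array left out it ran from 0 to 2. It was 0 without Ly-6C-negative replicate 1 or Ly-6C-positive replicate 2 or 3, and 1 without Ly-6C-positive replicate 1. Calls over all 19938 genes moved as well, from 29 to 54 with array weights and 41 in the blocked fit. They fell to 5 without Ly-6C-negative replicate 1, and to 8, 6 and 8 without Ly-6C-positive replicates 1, 2 and 3.

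The T cell markers Cd3e and Cd4 were bright on all arrays. Cd3e, a chain of the T cell receptor complex, lay between 11.55 and 11.92 in Ly-6C-negative cells and between 11.71 and 11.84 in Ly-6C-positive cells. Cd4 lay between 10.30 and 10.72 in Ly-6C-negative cells and between 10.55 and 10.63 in Ly-6C-positive cells. Among the genes meant to be low by the gate, Cd8b1 had the highest values, above the median gene, 6.37, though levels of different genes are not comparable. It measured between 7.58 and 8.04 in Ly-6C-negative cells and between 7.79 and 8.09 in Ly-6C-positive cells. In the same order the means were 6.26 and 6.29 for Cd8a and 5.41 and 5.29 for Il2ra. They were 6.67 and 6.66 for Foxp3 and 6.98 and 7.23 for Cd44, both also above the median gene. The source of the Cd8b1, Foxp3 and Cd44 signals was not tested. Of 12 measured T cell and gate genes, 0 passed the limma threshold and 1, Cd44, was reached at an unadjusted limma p under 0.05, at -0.25. Over all genes, 0.145% passed, 6.71% were reached at that limit in either direction and 3.44% with higher expression in Ly-6C-negative cells. Of 7 B cell, 12 myeloid and dendritic and 8 NK and innate lymphoid markers, 0 passed and 2 were higher and 2 lower at that unadjusted limit. Their mean levels were 5.17 to 5.27, 5.07 to 5.09 and 4.73 to 4.79 on the Ly-6C-negative arrays. On the Ly-6C-positive arrays they were 5.20 to 5.24, 5.06 to 5.11 and 4.75 to 4.80, so the ranges of these means overlapped in each list. Single markers departed from their list. Groups did not overlap for Eomes, at 0.27, or for Pax5 and Fcgr3, at -0.16 and -0.19 (limma adjusted p from 0.473 to 0.784). Over all genes, 6.12% did not overlap with the Ly-6C-negative group higher, and 1296 of 19938 with it lower. Tyrobp, with means of 6.81 in Ly-6C-negative and 6.97 in Ly-6C-positive cells, lay above the median gene, 6.37.

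Of the 14 other ways of processing that were run, 1 brought Dnmt3a past the threshold. With limma array weights its difference was 0.39 (limma adjusted p = 0.0311), as 1 of 7 members and with 0.271% of all genes called. Over all 14, its difference ran from 0.35 to 0.40 and its limma adjusted p from 0.0311 to 0.457. The limma adjusted p of Tet3 ran from 0.359 to 0.903 and that of Tet1 from 0.336 to 0.996.

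**Figure D4:**
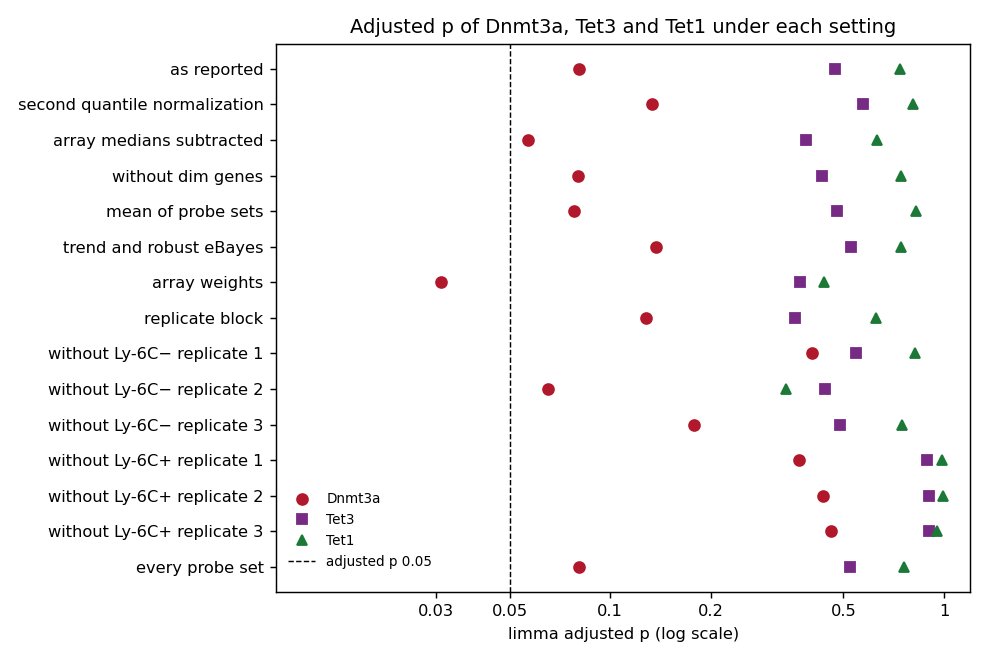
Limma adjusted p, on a log axis, of Dnmt3a, Tet3 and Tet1 as reported (top) and under each of 14 other settings, with a dashed line at 0.05. Dnmt3a crosses the line with array weights, at 0.0311, and lies at 0.0567 or above elsewhere; Tet3 and Tet1 stay above 0.33.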

How the data were processed

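What the authors deposited is 1 table of log2 values, for 28853 probe sets and 6 arrays. Per the submitters' processing notes, the authors used RMA and Partek, with neither version nor role stated. Where RMA is applied it corrects background, equalises the arrays' distributions and summarises on the log2 scale, so a shift common to every gene is lost and dim genes are compressed. The values ran from 2.47 to 13.6 with array medians from 6.25 to 6.29. Genome build and chip description are not given in the sources used.

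Probe sets with 1 gene symbol (21789) were named through the platform annotation and, for 21698, a current gene by Entrez ID. The brightest probe set stood for each of 19938 genes. Differences were fitted with lmFit and eBayes of limma 3.58.1 (R 4.3.3), 2-sided and with neither covariate nor filter, with Benjamini-Hochberg adjustment over all genes and a threshold of 0.05. The model added 5.56 prior degrees of freedom. Array number limits the precision. The fit was tested on simulated data. Python 3.11.15 and matplotlib 3.10.9 made the figures.

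The members and lists were chosen with earlier results of these data known. The 11 related lists hold 162 distinct genes, 17 of them not analysed here. Genes named are all members, up to 4 per list with the smallest p, any past the threshold, and the 3 genes most like each of 2 members. Some of these are left unprinted, and the T cell markers Cd3e and Cd4 were added to show the cell type.

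Replicate numbers are shared by both groups. Deviations from group means correlated at r = 0.129, 0.128 and 0.107 for same-numbered arrays, each above the bound of 0.1, so the numbers were read as pairs from the data, and the labels do not state it. The main fit leaves these pairs out, so its standard errors, intervals and p are unpaired. A fit with the number as a block, array weights, other normalizations, other probe set rules, a filter on dim genes, other variance settings and leaving out each array were the alternatives.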

Additional observations from a re-analysis of the deposited data

How the results depend on the processing

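All 14 alternatives were planned, and their results were compared 391 times, of which 370 stayed within the limits set for them. A difference stayed within them if its sign and its side of the threshold held, and a count if it changed at most 1.5-fold. A list median stayed within them if it moved by no more than a spread set for its list, from 0.018 to 0.074. The filter on dim genes, the other variance settings, the block and the fit over every probe set leave a gene's difference unchanged by construction. The 370 is therefore no measure of how stable the results are. The number of members past the threshold stayed at 0 except with array weights, where it was 1, Dnmt3a at 0.39. The difference of Uhrf1 reversed to -0.060 without Ly-6C-positive replicate 1, and ran from there to 0.18 with an array left out; Uhrf1 was not tested without dim genes. In the fit with replicate number as a block, 41 genes passed instead of 29, the member differences were the same by construction, Dnmt3a had a limma adjusted p of 0.128, and the block changed no member's call. The 29 genes became 54 with array weights, 45 features with every probe set taken alone, and 5 to 47 with an array left out. In the replication list 1 gene, Top2a, passed with array weights, and 0 to 1 passed with an array left out. Of the 18 methylation-controlled loci, 0 to 2 passed with an array left out. List medians moved to 0.035 for the methyltransferase partners after subtraction of array medians, and to 0.074 for base removal and 0.050 for the T cell loci with array weights. With an array left out the base removal median ran from -0.0013 to 0.072, that of the T cell loci from 0.0084 to 0.069, of the methyltransferase partners from -0.0017 to 0.028, of the readers from -0.029 to 0.095, of the methyl donor cycle from -0.025 to 0.035, of the 2-oxoglutarate list from 0.0015 to 0.043 and of the replication list from 0.093 to 0.14. The medians of base removal, partners, readers and methyl donor cycle thus changed sign in at least 1 of these fits. The causes were not tested. The number of arrays, 3 a group, limits what can be said of differences such as the 0.15 to 0.27 of the Tet genes.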
